A study of Mus musculus with 20 samples.

Results

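Microglia from mice that both lacked Trem2 and carried the 5XFAD amyloid transgenes (Trem2-/-5XFAD, 6 arrays) were set against microglia from WT mice (4 arrays), so that the comparison spans both genetic changes at once. Arrays were taken by their genotype label. The 10 arrays used are part of the 20 in the study, and 1 array whose title says WT but whose genotype and source say Trem2-/- was left out. The remaining arrays came from 4 Trem2-/- and 5 5XFAD mice, which serve here as reference levels.

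All animals were littermates aged 8.5 months. WT mice carried neither change. Trem2-/- mice lacked Trem2, 5XFAD mice carried human amyloid precursor protein and presenilin transgenes driven by a neuronal promoter, and Trem2-/-5XFAD mice had both. The labels give the deletion as a genotype of the mouse and name no cell type to which it was restricted. Brains were taken after perfusion and dissociated with a commercial kit, microglia were sorted by fluorescence, and labelled cRNA was made from 2 ng of RNA. The sources used here do not state the sort gate, the sex of the animals or the Trem2 allele.

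Trem2 is a receptor of microglia that binds lipids and lipoproteins and signals through the adaptor Tyrobp. In brains with amyloid plaques, microglia near plaques lower a set of homeostatic genes such as Tmem119 and P2ry12 and raise a programme known as disease-associated microglia (DAM). This programme is described in 2 stages. The first, which includes Apoe and Tyrobp, is reported to start without Trem2, and the second, which includes Itgax, Lpl and Clec7a, is reported to need it.

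All levels are log2(intensity + 1) on arrays scaled by the authors, and all differences are on that log2 scale with standard errors. The standard errors come from 1 model of all 4 groups, which share 1 estimate of the spread. A gene was called higher or lower at a limma p below 0.05 after Benjamini-Hochberg adjustment over the 12728 genes tested. Trem2 itself stood at 11.37, 11.36, 11.39 and 11.14 in the WT arrays and between 6.75 and 7.60, median 6.96, in the Trem2-/-5XFAD arrays. The difference was -4.27 ± 0.13 (adjusted p = 3.87e-15), and the labels of all 10 arrays matched this gene. Tyrobp differed by 0.05 (adjusted p = 0.815). Of the 50 genes nearest to Trem2 on chromosome 17, 15 were tested and 0 were called, with differences from -0.51 to 0.67 (limma). On the whole chromosome 39 of 652 tested genes were called, 5.98%, beside 5.22% of all tested genes.

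The microglial identity markers averaged 11.28 to 11.50 in the WT arrays and 11.17 to 11.24 in the Trem2-/-5XFAD arrays, so the labelled cell type was present at high level in both. Xist signal, which marks female mice, was present in 3 of 4 WT arrays and 0 of 6 Trem2-/-5XFAD arrays, while Y-linked signal was present in 1 of 4 and 6 of 6. Genotype and sex signal therefore overlap in a single WT array, WT 2. Neutrophil markers (10 tested) averaged 4.68 to 5.25 in WT and 5.40 to 6.98 in Trem2-/-5XFAD, highest in arrays 1 and 6. S100a8 and S100a9 were the 2 called members, both higher, beside 3.21% of all tested genes. S100a8 stood at 4.97, 3.62, 5.79 and 4.98 in WT and 7.0 to 11.11, median 8.04, in Trem2-/-5XFAD (difference 3.61 ± 0.81, adjusted p = 0.0116). S100a9 lost its call in 13 of 26 alternative fits. The neutrophil mean ran from 5.27 to 6.96 in Trem2-/- arrays, also above WT, and from 4.91 to 5.76 in 5XFAD arrays. Salivary gland transcripts averaged 7.31 and 7.67 in WT 1 and WT 2 against 3.67 and 4.23 in WT 3 and WT 4 and 3.58 to 3.95 in Trem2-/-5XFAD. None of these 8 transcripts was called by limma, although their median difference was -2.29. In bulk samples like these, fewer cells of a type and less RNA per cell cannot be told apart.

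**Figure D1:**
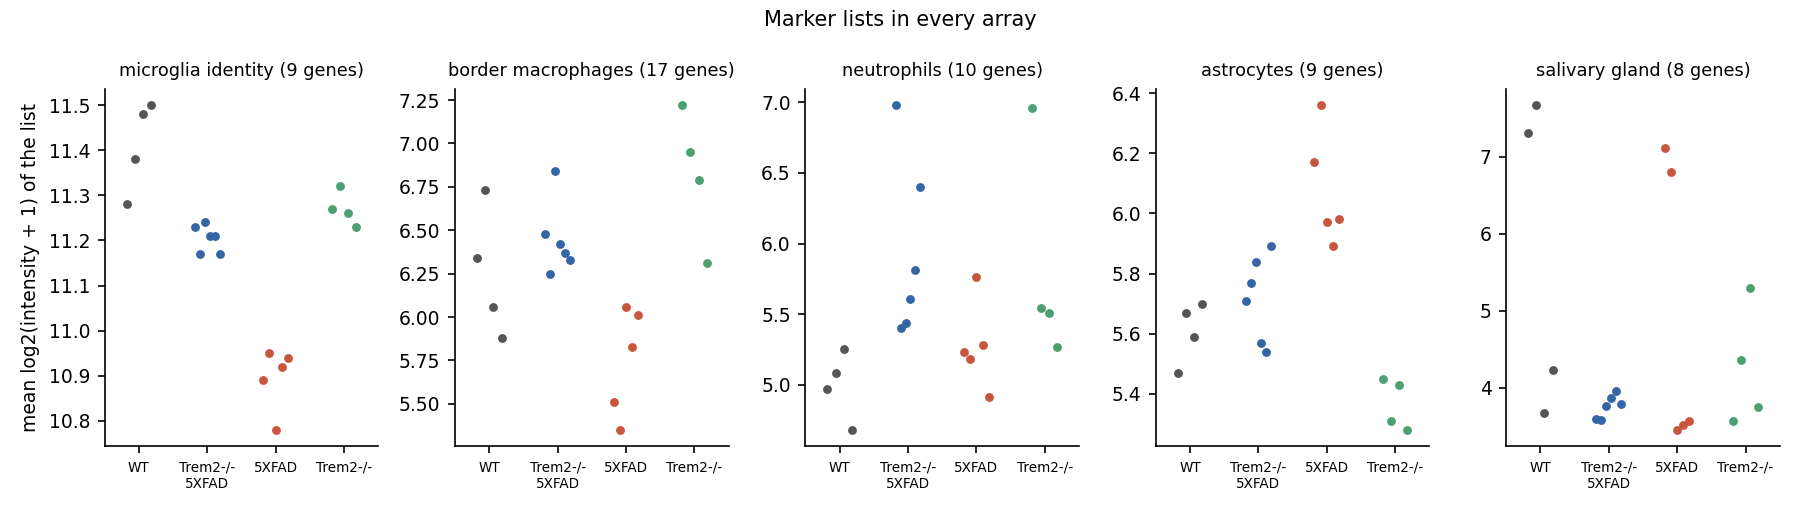
Mean log2(intensity + 1) of 5 marker lists in each array of the 4 genotypes, 1 point per array. Neutrophil markers lie between 5.40 and 6.98 in Trem2-/-5XFAD and between 4.68 and 5.25 in WT, and among the WT arrays salivary gland transcripts are high in WT 1 and WT 2.

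In Trem2-/-5XFAD microglia 408 genes were higher than in WT, 3.21% of those tested, and 256 were lower, 2.01%. Most of these changes were small. The median difference of the higher genes was 0.65 and that of the lower genes -0.57, and 89 genes rose and 21 fell by at least 1 log2 unit. Among all tested genes the median difference was 0.02. Every Trem2-/-5XFAD array lay above every WT array for 497 of the 12728 tested genes, and below every WT array for 341. For genes named by the size or p of their difference, such separation is no further result. For reference, 5XFAD microglia with Trem2 had 1047 genes higher and 862 lower than the same WT arrays, 8.23% and 6.77%, of which 307 and 101 passed 1 log2 unit. Trem2-/- microglia without the transgenes had 49 higher and 29 lower, 0.385% and 0.228%. These 3 comparisons share the WT arrays, so their values stand side by side and no overlap between them is counted as a result. Against the Trem2-/- arrays, 207 genes were higher in Trem2-/-5XFAD, 1.63%, and 71 lower, 0.558%.

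With the sex signal as a covariate 184 genes were higher and 67 lower, and among arrays with Y-linked signal alone, which leaves 1 WT array whose spread is assumed to be like that of the other groups, 167 were higher and 127 lower. With the neutrophil marker mean as a covariate the counts were 187 and 94. Without WT 3 they were 227 and 122. With only the WT and Trem2-/-5XFAD arrays in the fit they were 304 and 179, and 432 of the 664 main calls were kept. Centring each array on its median gave 302 higher and 334 lower, so the balance between higher and lower genes depends on the scaling.

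The distance between arrays, taken as the root mean square of the log2 differences over tested genes, had a median of 0.466 between Trem2-/-5XFAD and WT arrays. WT arrays differed from each other by a median of 0.475 and Trem2-/-5XFAD arrays by 0.299. The 5XFAD arrays lay farther from WT, at a median of 0.583, and the Trem2-/-5XFAD arrays lay 0.441 from the 5XFAD arrays. Trem2-/- arrays lay 0.453 from WT. The WT arrays, which differ in sex signal and in salivary gland transcripts as given above, were by median about as far from each other as from the arrays of either group lacking Trem2, and this measure does not separate those groups from WT.

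**Figure D2:**
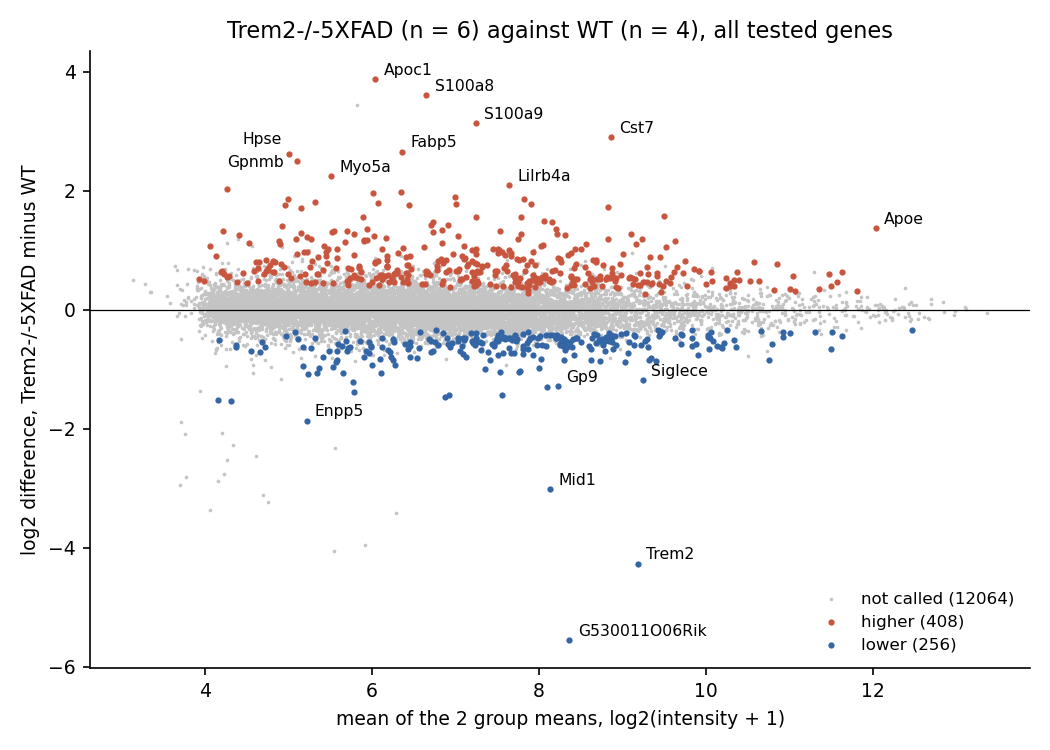
Difference between Trem2-/-5XFAD and WT (log2, vertical) against the mean of the group means (log2(intensity + 1), horizontal) for 12728 tested genes. Red points are the 408 genes called higher and blue points the 256 called lower by limma. Apoc1, S100a8 and Cst7 lie near the top, and Trem2, Mid1 and G530011O06Rik at the bottom.

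The largest increase was that of Apoc1, an apolipoprotein of lipid particles that lies beside Apoe in the genome. It stood at 4.20, 3.91, 4.26 and 4.01 in the WT arrays and between 6.73 and 8.63, median 8.17, in the Trem2-/-5XFAD arrays. The groups did not overlap, and the difference was 3.88 ± 0.33 (adjusted p = 3.43e-07), a 14.7-fold change. The WT values lie at or under the 40th percentile of the arrays, where the pseudocount makes folds too small. In 5XFAD arrays Apoc1 ran from 5.70 to 7.40, so Trem2-/-5XFAD exceeded 5XFAD too, by 1.30 ± 0.31 (adjusted p = 0.0111, 95% interval 0.65 to 1.95).

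Cst7, an inhibitor of cysteine proteases made by activated microglia, was the next among genes outside the neutrophil list. WT arrays gave 7.42, 7.65, 7.25 and 7.28, and Trem2-/-5XFAD arrays gave 9.95 to 10.61, median 10.29. Every Trem2-/-5XFAD array was above every WT array, with a difference of 2.91 ± 0.16 (adjusted p = 2.79e-10). Cst7 in 5XFAD arrays was higher again, at 12.15 to 12.28, and the difference of Trem2-/-5XFAD from 5XFAD was -1.90 ± 0.15 (adjusted p = 3.02e-08). Trem2-/- microglia lay under WT for this gene, at -0.94 ± 0.18 (adjusted p = 0.0153).

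Fabp5, which carries fatty acids inside cells, stood at 4.19, 6.16, 5.00 and 4.77 in WT and at 7.14 to 8.05, median 7.75, in Trem2-/-5XFAD (difference 2.66 ± 0.25, adjusted p = 1.1e-06). Hpse, heparanase, which cuts heparan sulphate chains, stood at 3.54, 3.85, 3.57 and 3.81 against 5.87 to 6.80, median 6.21 (2.61 ± 0.18, adjusted p = 5.8e-09). Gpnmb, a lysosome-associated membrane glycoprotein, stood at 4.12, 3.57, 3.51 and 4.21 against 5.78 to 6.97, median 6.43 (2.51 ± 0.25, adjusted p = 2.11e-06). For these 3 genes the groups were fully separated, and Trem2-/-5XFAD was below 5XFAD in each, with differences of -2.36 ± 0.24, -1.74 ± 0.17 and -3.03 ± 0.24. The 40th percentile of the arrays lay at 4.16 to 4.34. In WT, Hpse lay under this range and Gpnmb under or within it, so their WT levels are near the floor and their folds are understated.

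The remaining large increases included the myosin motor Myo5a (2.24 ± 0.22), the inhibitory receptor Lilrb4a (2.10 ± 0.19) and the related gene Lilr4b (1.90 ± 0.21). The others were Gch1, the first enzyme of tetrahydrobiopterin synthesis (1.98 ± 0.26), and the growth factor Igf1 (1.96 ± 0.26). Lilrb4a lay at 6.27, 6.32 and 6.36 in 3 WT arrays and at 7.43 in WT 2, against 8.33 to 8.97 in Trem2-/-5XFAD. Igf1 stood at 5.78, 5.14, 4.98 and 4.21 in WT and 6.46 to 7.53, median 7.09, in Trem2-/-5XFAD, with 5XFAD higher than WT by 4.31. Gch1 was also called in Trem2-/- microglia, at 1.49 above WT (adjusted p = 0.0183). The SD of Gch1 was 0.97 in WT and 0.16 in Trem2-/-5XFAD, and its difference ran from 0.74 to 2.70 over 26 alternative fits. As the standard errors share 1 spread over the 4 groups, they understate how much WT varied for Gch1 and for Fabp5 (WT SD 0.83).

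**Figure D3:**
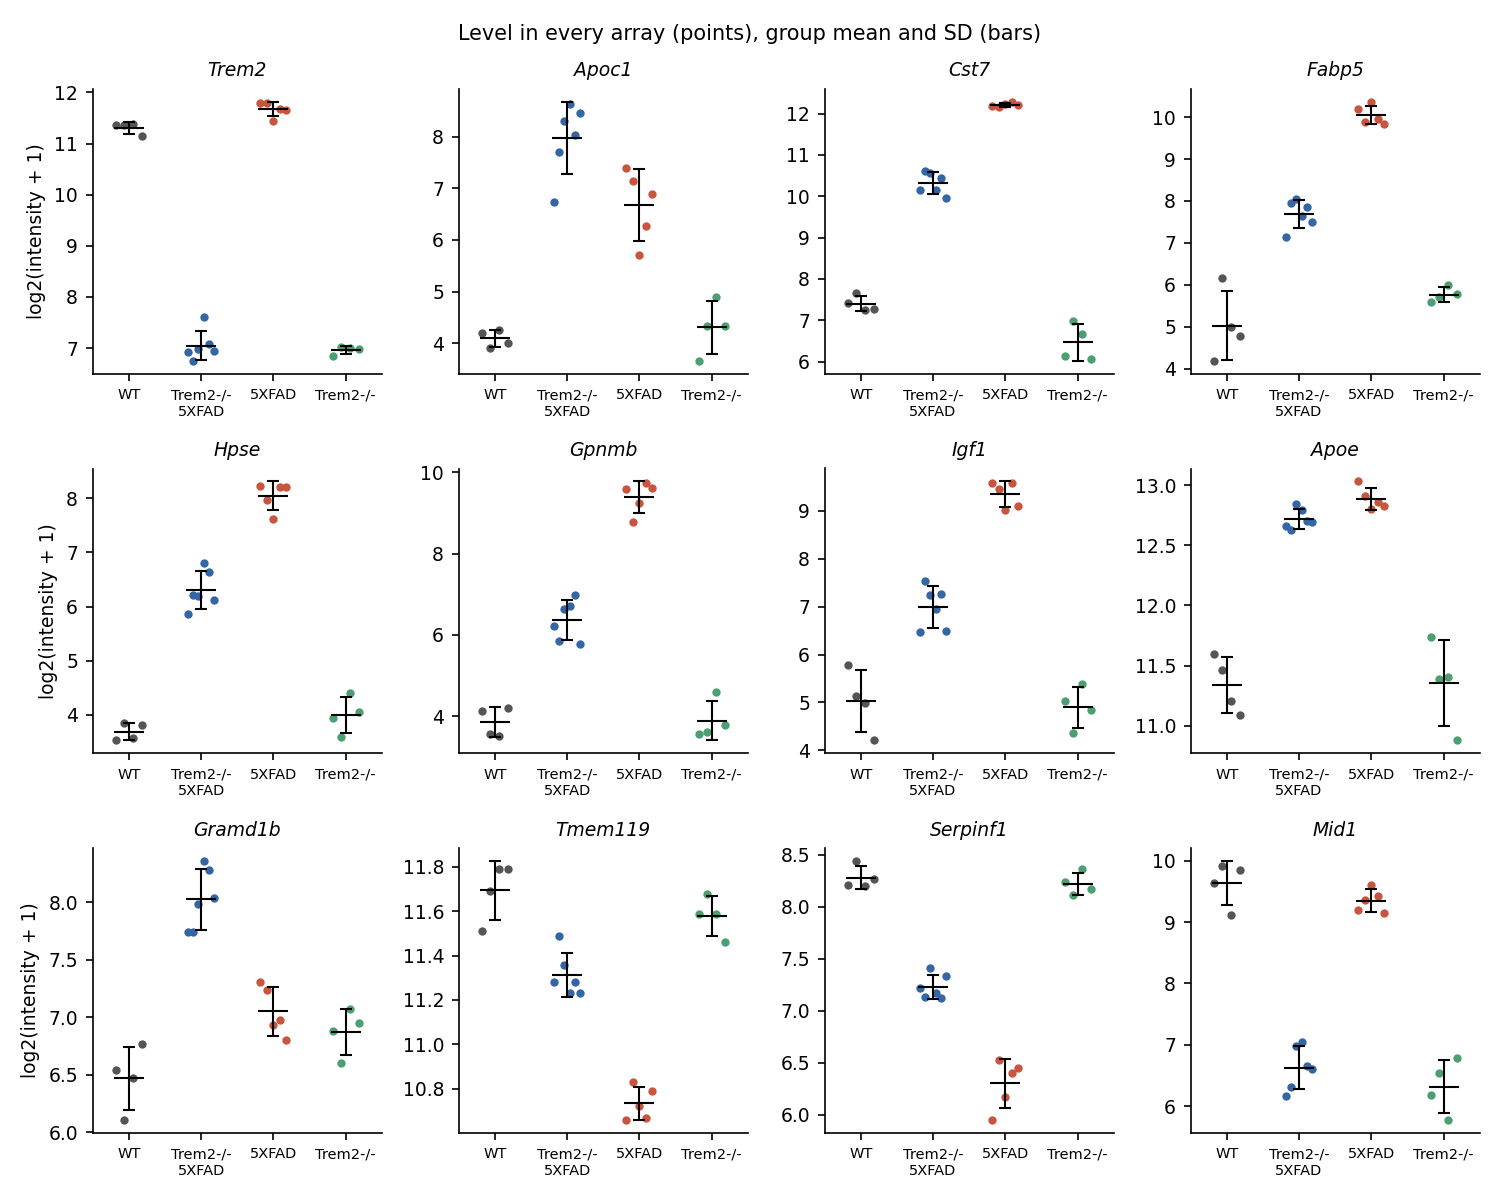
Level, as log2(intensity + 1), of 12 genes named in the text in every array of the 4 genotypes. Each point is 1 array, and the bars give the group mean and SD. In Trem2-/-5XFAD, Cst7 and Gpnmb lie between WT and 5XFAD, Apoc1 and Gramd1b have their highest mean, and Mid1 is low as in Trem2-/-.

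Genes of the second DAM stage were partly raised. Of 20 tested, 13 were higher and 0 lower than in WT, with a median difference of 0.51 against 0.02 for all tested genes and 3.21% of all genes called higher. In 5XFAD 19 of the 20 were higher than in WT, with a median of 1.56, beside 8.23% of all genes. Against 5XFAD, where 3.21% of all genes were higher and 4.46% lower, 14 of the 20 were lower in Trem2-/-5XFAD. The mean of the list was 8.57 to 8.69 in WT arrays, 9.35 to 9.51 in Trem2-/-5XFAD arrays and 10.40 to 10.70 in 5XFAD arrays, so the 3 groups did not overlap.

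Clec7a, the beta-glucan receptor dectin-1, stood at 6.29, 5.76, 6.27 and 6.14 in WT and 7.49 to 8.20, median 7.97, in Trem2-/-5XFAD (1.77 ± 0.17, adjusted p = 9.18e-07). Lpl, lipoprotein lipase, stood at 5.09, 4.73, 5.78 and 4.85 against 6.37 to 6.92, median 6.65 (1.56 ± 0.18, adjusted p = 9.62e-06). Itgax, the integrin CD11c, stood at 5.10, 4.85, 5.06 and 5.58 against 6.09 to 6.55, median 6.49 (1.27 ± 0.16, adjusted p = 5.31e-05). Each of these genes was separated between the groups. The matching differences of 5XFAD from WT were 3.47, 4.47 and 4.19.

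Axl, a receptor kinase that binds bridged phosphatidylserine, rose by 1.02 ± 0.17 (adjusted p = 0.000907), with WT at 5.92, 5.79, 5.28 and 5.45 and Trem2-/-5XFAD at 6.40 to 6.94. Csf1, a ligand of the survival receptor Csf1r, rose by 0.95 ± 0.13 (adjusted p = 7.35e-05), while Trem2-/- microglia differed from WT by -0.94 (adjusted p = 0.00182). The tetraspanin Cd9 rose by 0.39 (adjusted p = 0.0252) and lost its call in 13 of 26 alternatives. Axl lost its call in 1 of 26 alternatives, the fit of arrays with Y-linked signal alone, where it differed by 0.84.

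A further list of genes raised near plaques was also partly raised. Its members were chosen with earlier results of these data known, so it is no independent check. Of 38 tested, 22 were higher and 0 lower, with a median of 0.66, beside 3.21% of all genes called higher. In 5XFAD 33 were higher than in WT with a median of 1.91, beside 8.23% of all genes. The list mean was 6.25 to 6.51 in WT, 7.12 to 7.42 in Trem2-/-5XFAD and 8.46 to 8.87 in 5XFAD. Of the first DAM stage, 3 of 9 genes were higher, namely Apoe, the lysozyme Lyz2 (0.63) and the protease inhibitor Cstb (0.66), and the median was 0.11, beside 3.21% of all genes called higher. With the neutrophil covariate 1 of the 9 was called.

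Members of these programmes differed in how much of the 5XFAD level they reached. The next genes were chosen after their values were seen. Mamdc2, raised by 4.64 in 5XFAD, differed from WT by 0.35 ± 0.22 in Trem2-/-5XFAD (adjusted p = 0.415). Flt1, a receptor of vascular growth factors, was raised by 2.95 in 5XFAD and differed from WT by -0.02 ± 0.15 (adjusted p = 0.965). The values for Dkk2, a modulator of Wnt signalling, were 2.97 and 0.19 ± 0.13 (adjusted p = 0.486).

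The corresponding values were 3.67 and 0.30 ± 0.18 (adjusted p = 0.375) for Atp6v0d2, a proton pump subunit, and 4.28 and 0.52 ± 0.26 (adjusted p = 0.274) for the transcription factor Bhlhe40. None of these 5 genes was called in Trem2-/-5XFAD against WT. Others rose to the 5XFAD level or near it. Ly9, a receptor of the SLAM family, rose by 1.36 ± 0.17 and differed from 5XFAD by -0.13 ± 0.16 (adjusted p = 0.724, 95% interval -0.47 to 0.21). Mmp12, a macrophage elastase, rose by 1.32 ± 0.17 and differed from 5XFAD by 0.10 ± 0.16 (adjusted p = 0.793, 95% interval -0.24 to 0.44).

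**Figure D4:**
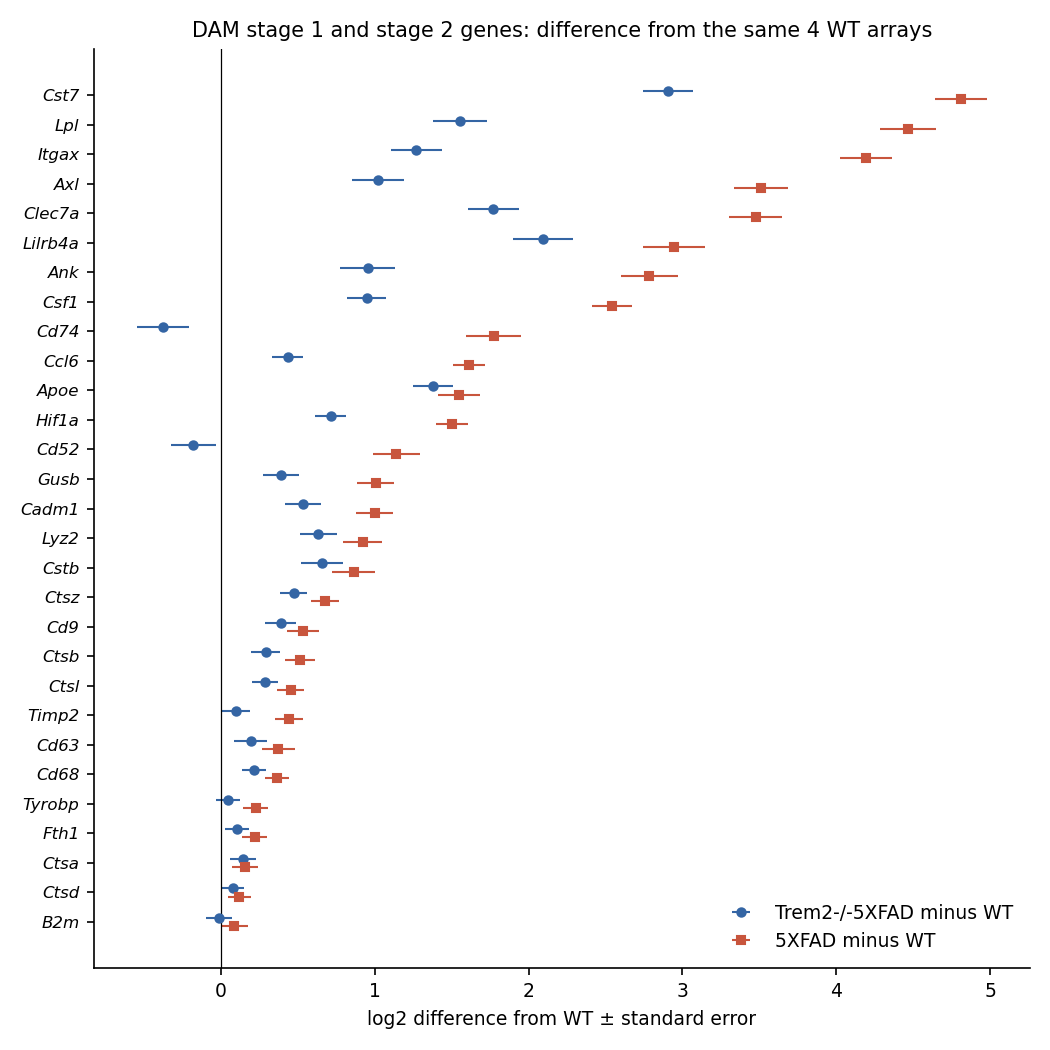
Differences from WT (log2, with standard errors as bars) of the 29 tested genes of the 2 DAM stages, in Trem2-/-5XFAD (blue circles) and 5XFAD (red squares), against the same WT arrays. Lpl and Itgax differ by 1.56 and 1.27 in Trem2-/-5XFAD and by 4.47 and 4.19 in 5XFAD, while Apoe lies close to its 5XFAD value.

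Lipoprotein and lipid genes went both ways against 5XFAD, with Apoc1 above it, Lpl and Fabp5 below it, and Apoe and Plin2 not called in that comparison. Apoe, the main lipid carrier of the brain, stood at 11.60, 11.46, 11.21 and 11.09 in WT and 12.63 to 12.84, median 12.69, in Trem2-/-5XFAD. The groups were separated, with a difference of 1.38 ± 0.13 (adjusted p = 1.06e-06), a 2.60-fold change. It differed from 5XFAD by -0.17 ± 0.12 (adjusted p = 0.481, 95% interval -0.42 to 0.09). Apoc4, of the same gene cluster, rose by 0.84 ± 0.15 (adjusted p = 0.00259) and differed from 5XFAD by -0.02.

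Plin2, which coats lipid droplets, stood at 6.75, 6.84, 7.41 and 6.98 in WT and 8.39 to 8.74, median 8.55, in Trem2-/-5XFAD (1.56 ± 0.14, adjusted p = 3.43e-07). It differed from 5XFAD by -0.22 ± 0.13 (adjusted p = 0.347, 95% interval -0.49 to 0.04). Gramd1b, a carrier of cholesterol from the plasma membrane to the endoplasmic reticulum that was named after its values were seen, stood at 6.54, 6.11, 6.47 and 6.77 against 7.74 to 8.36, median 8.01. It rose by 1.55 ± 0.15 (adjusted p = 1.27e-06) and exceeded 5XFAD by 0.97 ± 0.14 (adjusted p = 8.94e-05). Nceh1, which hydrolyses cholesterol esters, rose by 1.24 ± 0.15 and differed from 5XFAD by -1.11.

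As whole lists, sterol efflux and lipoprotein genes had 4 of 14 higher (Apoc1, Apoe, Nceh1 and Apoc4) and 0 lower, with a median of 0.20, and fatty acid and lipid handling genes had 3 of 23 higher (Fabp5, Plin2 and Lpl) and 0 lower, with a median of 0.18. These shares stand beside 3.21% higher among all tested genes. Of cholesterol synthesis genes 0 of 20 were called in either direction by limma, with a median of 0.07, which is near the 5.22% called among all genes. In 5XFAD 11 of the 20 were higher than in WT with a median of 0.73, beside 8.23% of all genes, and 12 of the 20 were lower in Trem2-/-5XFAD than in 5XFAD with a median of -0.70, beside 4.46% of all genes. Srebf2, the transcription factor that drives this pathway, stood at 6.41, 6.41, 6.38 and 6.41 in WT and differed by 0.01 ± 0.11 in Trem2-/-5XFAD, whereas 5XFAD exceeded WT by 1.13.

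Homeostatic microglial genes were lower in part. Of 36 tested, 12 were lower and 0 higher, with a median difference of -0.28, beside 2.01% of all genes called lower. In 5XFAD 29 were lower, with a median of -0.54, beside 6.77% of all genes. In Trem2-/-5XFAD 17 of the 36 were higher than in 5XFAD, beside 3.21% of all genes. The list mean was 10.56 to 10.79 in WT, 10.29 to 10.42 in Trem2-/-5XFAD and 9.90 to 10.06 in 5XFAD.

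The members with the smallest p were Txnip, an inhibitor of thioredoxin and glucose uptake (-0.85 ± 0.15, adjusted p = 0.00163), the fructose transporter Slc2a5 (-0.63 ± 0.12, adjusted p = 0.00261) and Sting1, the adaptor of cytosolic DNA sensing (-0.53 ± 0.10, adjusted p = 0.00323). Tmem119, a marker of brain microglia, stood at 11.51, 11.69, 11.79 and 11.79 in WT and 11.23 to 11.49, median 11.28, in Trem2-/-5XFAD, a difference of -0.38 ± 0.09 (adjusted p = 0.0142). Its groups were separated, but by only a small gap. The purinergic receptor P2ry12 (-0.34 ± 0.10, adjusted p = 0.0583), the fractalkine receptor Cx3cr1 (-0.17, adjusted p = 0.237), the transcription factor Sall1 (-0.39, adjusted p = 0.0985) and Csf1r (-0.09) were not called. The count of 12 depended on the arrays and covariates that entered. It was 4 without WT 3, 3 with the sex covariate and 4 with the neutrophil covariate. The median difference of the list was -0.24, -0.23 and -0.30 in these fits, beside -0.28 in the main fit. Among arrays with Y-linked signal, which leave 1 WT array, the median was -0.22.

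Type I interferon response genes were higher in part. Of 33 tested, 10 were higher and 0 lower, with a median of 0.58, beside 3.21% higher among all genes. In 5XFAD 21 were higher with a median of 0.87, beside 8.23%. Cxcl10, a chemokine for T cells, stood at 9.74, 9.43, 8.15 and 8.89 in WT and 9.96 to 10.52, median 10.19, in Trem2-/-5XFAD (1.16 ± 0.22, adjusted p = 0.00382). Mx2, an antiviral GTPase, stood at 4.65, 5.63, 4.79 and 4.47 against 5.56 to 6.27 and rose by 1.07 ± 0.20 (adjusted p = 0.00239), although WT 2 lay within the range of the other group. The nucleic acid sensor Zbp1 rose by 1.03 ± 0.21 (adjusted p = 0.00573).

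The other called members were Oasl2 (0.98), Ifitm3 (0.88), Ifit3 (0.87), Slfn5 (0.82), Rsad2 (0.67), Oas2 (0.66) and Irf7 (0.63). They encode antiviral effectors, apart from Irf7, which is a transcription factor of the response. The list mean was 6.10 to 6.22 in WT, 6.51 to 6.94 in Trem2-/-5XFAD and 6.71 to 7.43 in 5XFAD, so WT was separated while the other groups overlapped. The number of members called higher was 5 without WT 3, 4 with the neutrophil covariate and 3 among arrays with Y-linked signal.

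Promoters of the interferon list were searched for the interferon-stimulated response element, written as GAAANNGAAA and sought on both strands from 250 bases before to 50 bases after the start of each gene. It was found in 15 of the 24 tested members with a promoter sequence, 62.5%, and in 3.99% of 27025 genes. Among these members it was in 5 of 7 called higher and 10 of 17 not called, so the letters were frequent in both. Windows around the matches that lie before the start site are shown for the called genes, with the match in capitals, from RefSeq sequence of GRCm38.p6 read 5′ to 3′ on the strand of the gene. They lie at chr19:34583348-34583407 and chr19:34583382-34583441 (plus strand) for Ifit3, chr12:26456538-26456597 (minus strand) for Rsad2, chr11:82951922-82951981 (plus strand) for Slfn5 and chr5:92349068-92349127 (minus strand) for Cxcl10.
Ifit3, first match: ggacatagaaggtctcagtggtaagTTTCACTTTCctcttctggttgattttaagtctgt
Ifit3, next match: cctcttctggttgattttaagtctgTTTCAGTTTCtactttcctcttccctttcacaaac
Rsad2: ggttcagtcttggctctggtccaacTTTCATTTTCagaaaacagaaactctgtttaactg
Slfn5: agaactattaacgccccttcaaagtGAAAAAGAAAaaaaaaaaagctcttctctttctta
Cxcl10: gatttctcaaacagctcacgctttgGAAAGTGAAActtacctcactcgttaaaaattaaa
The capitals begin 156 and 122 bases before the start site in Ifit3, 120 in Rsad2, 155 in Slfn5 and 213 in Cxcl10. In Ifit3 and Rsad2 the element is on the opposite strand. A match describes the letters and does not show that a factor binds there.

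Cytokine and chemokine genes had 9 of 33 higher and 1 lower, with a median of 0.25, beside 3.21% and 2.01% of all genes. Tnfsf9, the ligand of the costimulatory receptor 4-1BB, rose by 1.76 ± 0.29 (adjusted p = 0.000813) and was separated from WT. Il1b, interleukin 1 beta, stood at 9.31, 10.04, 7.75 and 7.70 in WT and a median of 10.16, with a highest value of 10.73, in Trem2-/-5XFAD (1.58 ± 0.33, adjusted p = 0.00725). WT 2 lay above the lowest array of the other group, and WT 3 and WT 4 lay more than 1 unit under WT 1. Cxcl2 (1.10), Ccl5 (1.09) and Tnf (0.77) also rose with overlapping groups, and the chemokine Ccl9 fell by 0.49.

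Among genes of toll-like receptor and NF-kB signalling, 5 of 30 were higher (Relb, Tlr2, Myd88, Rel and Nfkbiz) and 2 lower (Tlr4 and Tlr3), against the same shares. Tlr2 rose by 0.63 ± 0.09 (adjusted p = 0.000273) and the NF-kB subunit Relb by 0.82 ± 0.17 (adjusted p = 0.00743), while Tlr4, the receptor of bacterial lipopolysaccharide, fell by 0.76 (adjusted p = 0.00457). Among arrays with Y-linked signal, 2 cytokine genes and 0 genes of this second list were called higher, and Il1b differed by 0.24 (adjusted p = 0.719). With the neutrophil mean as a covariate 2 members of each were called higher, and without WT 3 the counts were 5 and 3.

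For ribosomal, oxidative phosphorylation, lysosomal and vacuolar ATPase genes the share called in Trem2-/-5XFAD was near that of all genes, 3.21% higher and 2.01% lower, and nothing is read from those counts. The counts for 5XFAD stand beside 8.23% higher and 6.77% lower. Of 12 MHC class II genes 0 were higher and 2 lower, with a median of -0.25. Cd74, the invariant chain, stood at 8.54, 9.19, 9.12 and 8.41 in WT and differed by -0.37 (adjusted p = 0.231), and Trem2-/-5XFAD differed from 5XFAD by -2.15. The called members were Cd80 (-0.70) and H2-Oa (-0.53), while 0 members were called without WT 3, with the sex or neutrophil covariate, or without Trem2-/-5XFAD 1 and 6. Ribosomal protein genes had 0 of 25 called against 10 higher in 5XFAD, and oxidative phosphorylation genes had 1 of 38 higher, Cox5b, against 14 in 5XFAD. Cox5b lost its call in 20 of 26 alternatives, among them the fit without WT 3.

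Lysosomal genes had 2 of 45 higher, Gla (1.27 ± 0.14, adjusted p = 7.63e-06), which encodes alpha-galactosidase A, and the cathepsin Ctsz (0.47 ± 0.09, adjusted p = 0.00259), against 16 higher and 4 lower in 5XFAD. Gla was raised in Trem2-/- microglia as well, by 0.81 (adjusted p = 0.0153). Of 16 vacuolar ATPase genes 1 was higher, the catalytic subunit Atp6v1a (0.85, adjusted p = 0.000905). Above the share of all genes, glycolysis genes had 5 of 22 higher, namely Pfkfb3, Slc2a1, Pkm, Tpi1 and Ldha. Pkm differed by 0.55 ± 0.11 and Tpi1 by 0.51 ± 0.11, while the list median was 0.05. The transcription factor Hif1a, which responds to low oxygen, rose by 0.71 ± 0.10 (adjusted p = 0.000111), with WT at 8.20, 8.12, 8.07 and 8.39 and Trem2-/-5XFAD at 8.82 to 9.04. The number of glycolysis genes called higher was 0 among arrays with Y-linked signal and 2 without WT 3. Of 18 hypoxia genes 3 were higher, Hif1a, Egln3 and Ero1a, and 0 lower, beside 3.21% and 2.01% of all genes. The hypoxia list had a median of 0.07. Its count of higher genes was 1 with the sex covariate, with the neutrophil covariate and without WT 1 and WT 2. Ero1a lost its call in 8 of 26 alternatives.

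**Figure D5:**
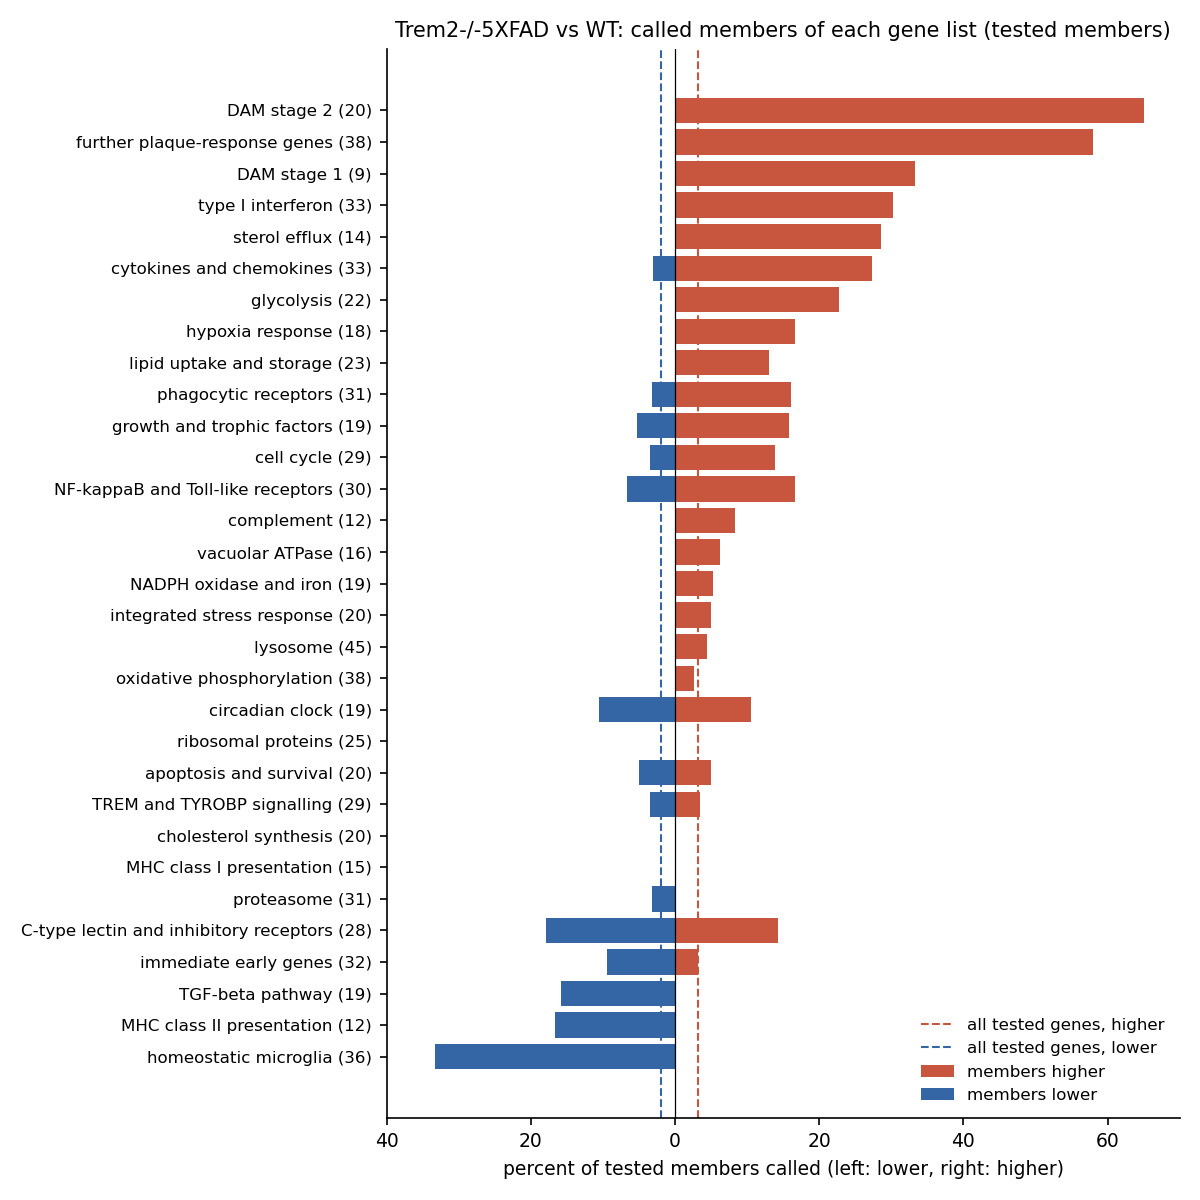
Percent of tested members of each gene list called higher (red, to the right) or lower (blue, to the left) in Trem2-/-5XFAD against WT, with the number tested in brackets. Dashed lines mark the 3.21% and 2.01% of all tested genes called higher and lower. Second-stage DAM genes have the longest bar to the right and homeostatic genes the longest to the left.

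The largest decreases were in genes that were also low in Trem2-/- microglia. G530011O06Rik, on chromosome X, stood at 11.26, 11.37, 10.86 and 11.04 in WT and 5.12 to 6.41, median 5.44, in Trem2-/-5XFAD (-5.55 ± 0.26, adjusted p = 1.98e-11). Mid1, a ubiquitin ligase bound to microtubules that is also on chromosome X, stood at 9.64, 9.92, 9.12 and 9.85 against 6.16 to 7.04, median 6.62 (-3.01 ± 0.20, adjusted p = 5.66e-09). Their means in Trem2-/- arrays were 4.28 and 6.32, and their ranges in 5XFAD arrays were 10.08 to 10.57 and 9.14 to 9.61. WT 2, the WT array with Y-linked signal, was the highest WT array for both genes.

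Enpp5, on chromosome 17 like Trem2 and 140 annotated genes away from it, stood at 6.28, 5.70, 6.44 and 6.17 in WT and 3.95 to 4.44, median 4.33, in Trem2-/-5XFAD (-1.86 ± 0.16, adjusted p = 3.43e-07). It differed from WT by -1.94 in Trem2-/- and by -1.16 in 5XFAD. Lrmda, a gene of melanosome formation, stood at 7.51, 7.68, 7.71 and 7.67 against 5.12 to 6.84 (-1.43 ± 0.32, adjusted p = 0.0112), and differed by -2.39 in Trem2-/- and 0.42 in 5XFAD. Rasgrf2, an exchange factor for Ras that was chosen after its values were seen, went the other way. It stood at 5.05, 4.70, 5.58 and 5.37 in WT and 6.20 to 7.56, median 6.94, in Trem2-/-5XFAD (1.80 ± 0.23, adjusted p = 4.09e-05), with 2.53 in Trem2-/- and -1.11 in 5XFAD.

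Other decreases were shared in direction with 5XFAD, as seen from the same WT arrays. Gp9, a platelet glycoprotein gene, stood at 8.63, 8.89, 9.02 and 8.94 in WT and 7.31 to 7.90 in Trem2-/-5XFAD (-1.28 ± 0.15, adjusted p = 2.38e-05), and differed by -1.74 in 5XFAD. Siglece, an inhibitory receptor for sialic acids, stood at 10.06, 9.75, 9.73 and 9.80 against 8.20 to 9.09, median 8.65 (-1.19 ± 0.18, adjusted p = 0.000292). Serpinf1, a secreted serpin, stood at 8.21, 8.44, 8.20 and 8.27 against 7.12 to 7.41, median 7.20 (-1.05 ± 0.11, adjusted p = 3.88e-06). The last pair was chosen after the values were seen, and both lay above 5XFAD, by 0.65 (adjusted p = 0.0167) and 0.93 (adjusted p = 3.12e-06).

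In the list of lectin and inhibitory receptors, 4 of 28 were higher and 5 lower, beside 3.21% and 2.01% of all genes, with a median of 0.01, so that Lilrb4a, Clec7a, Cd274 and Cd300lf rose while Siglece, Lilra5 (-0.99), Clec4a3 (-0.86), Clec4a2 (-0.75) and Vsir (-0.61) fell. Of 19 genes of TGF-beta signalling, which maintains the microglial state, 0 were higher and 3 lower, namely the co-receptor Eng (-0.63), the transducer Smad3 (-0.58) and the inhibitor Smad7 (-0.42). Smad3 stood at 8.67, 8.63, 8.50 and 8.57 in WT and 7.87 to 8.24 in Trem2-/-5XFAD. The number of TGF-beta genes called lower was 1 with the neutrophil covariate and 2 with the sex covariate or without WT 3. Smad7 lost its call in 13 of 26 alternatives. Immediate early genes had 1 of 32 higher, Maff, and 3 lower, Fos (-0.65), Zfp36l1 (-0.57) and Rhob (-0.37). Of 19 clock genes 2 were higher, Nr1d1 and Nr1d2, and 2 lower, Hlf and Bhlhe41. The repressor Nr1d1 rose by 1.03 ± 0.25 (adjusted p = 0.0184) and was raised by 1.51 in Trem2-/- (adjusted p = 0.0105), while Hlf fell by 0.80. The number of clock genes called higher was 0 without WT 3, with the sex or neutrophil covariate, among arrays with Y-linked signal and without Trem2-/-5XFAD 1 and 6.

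The remaining large decreases by the naming rule were Zfp273 (-1.54), the histone gene H1f3 (-1.52), Fam71a (-1.46), the small nuclear and nucleolar RNAs Rnu3a (-1.43) and Rnu12 (-1.29), and Leng9 (-1.38). Among the other lists, phagocytic receptors had 5 of 31 higher and 1 lower, cell cycle genes 4 of 29 and 1, and growth factors 3 of 19 and 1, beside 3.21% and 2.01% of all genes. The cell cycle count of higher genes was 0 without WT 3, with the sex covariate, with the replicate block, among arrays with Y-linked signal and without Trem2-/-5XFAD 1 and 6. TREM and TYROBP signalling genes had 1 of 29 higher, Dok2, and 1 lower, Trem2, and apoptosis genes had 1 of 20 higher, Birc3, and 1 lower, Bak1. Complement (12 tested), stress response (20) and NADPH oxidase and iron genes (19) each had 1 higher, namely C4b (1.32 ± 0.30, adjusted p = 0.0135), Psat1 and Slc11a2, and of 31 proteasome genes Psmd3 was lower. These single calls are near the share of all genes, and over 26 alternatives Dok2 lost its call in 13, Birc3 in 15 and Psmd3 in 12. None of 15 MHC class I genes was called by limma. Histone cluster genes, a family chosen after the values were seen, had 6 of 23 lower, 26.1%, with a median of -0.35. They differed from WT by a median of -0.32 in 5XFAD, where 6 were lower, beside 6.77% of all genes.

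Among markers of other brain and blood cells, the 4 tested monocyte markers averaged 5.29 to 5.88 in WT and 6.05 to 6.47 in Trem2-/-5XFAD, so the groups did not overlap. Their mean ran from 6.18 to 6.54 in 5XFAD and 5.68 to 6.44 in Trem2-/-. The median difference of the 4 between Trem2-/-5XFAD and WT was 0.40, and 1 was called, Anxa2 (1.72 ± 0.17, adjusted p = 2.11e-06). Of the 9 monocyte markers on the array, 5 were too dim to be tested, among them Ccr2. The part of these markers in the results was not tested. Of 5 vascular markers Pecam1 was lower (-0.82 ± 0.14, adjusted p = 0.000939), and the list mean ran from 5.89 to 6.36 in WT and 5.67 to 5.95 in Trem2-/-5XFAD. Of 9 astrocyte markers Gfap was higher (1.40 ± 0.18, adjusted p = 4.09e-05), with WT between 4.03 and 4.38 and Trem2-/-5XFAD between 5.41 and 5.81, and Slc1a3 was lower (-0.76 ± 0.16, adjusted p = 0.0084). The list mean ran from 5.47 to 5.70 in WT and 5.54 to 5.89 in Trem2-/-5XFAD, and its part in the results was not tested. Of 17 markers of border macrophages 0 were higher and 1 lower than in WT, Maf, with a median difference of 0.23. Of all tested genes 3.21% were higher and 2.01% lower than in WT. Against 5XFAD 11 of the 17 were higher, beside 3.21% of all genes. The 5XFAD arrays themselves had 1 of the 17 higher and 5 lower than WT, with a median of -0.72, beside 8.23% and 6.77% of all genes. Without Trem2-/-5XFAD arrays 1 and 6, those with the highest neutrophil mean, 12 of the 20 second-stage DAM genes, 6 of the 33 interferon genes and 4 of the 33 cytokine genes were higher, beside 263 of all 12728 genes.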

How the data were processed

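The authors deposited 1 table of linear intensity for 24679 probe sets on 20 arrays, and its tool and normalization are not given here by the labels or headers. Column medians of 25.7 to 28.6 show a common scale. Values were taken as log2(intensity + 1), computed from the deposited intensities. A gene was tested if it exceeded the 40th percentile of the array (16.9 to 19.2 intensity units) in at least 4 of the 19 assigned arrays. The platform annotation names 1 gene for 21354 probe sets, several for 1275 and none for 2050, and 21277 matched the reference table of GRCm38.p6. The probe set with the highest mean stood for each gene. A single linear model was fitted over the 4 groups (limma 3.58.1, R 4.3.3), with 15 residual and 5.29 prior degrees of freedom. The procedure was tested on simulated data.

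Replicate numbers did not pair the arrays (correlations from -0.073 to -0.013). The labels do not say how separate the samples are beyond being littermates, so p-values measure the spread between these arrays, whose number limits the precision.

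Genes named are Trem2, the 12 largest called increases and decreases, from each list the 3 members that had the lowest p, and well-known microglial genes such as Apoe and Tmem119. Members of lists named beside these, and genes said so in the text, were chosen after their values were seen. The members and lists were chosen with earlier results of these data known. Alternatives were another normalization, pseudocount, filter, probe set rule, moderation, sample set and covariates.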

Additional observations from a re-analysis of the deposited data

Results flagged for a closer look

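Of 248 groups of values examined, 18 had an array far from the others by Dixon's test, which chance gives in about 1 in 20 groups. Among WT arrays, Trem2 was 11.14 in WT 4 (others 11.36 to 11.39), Lilrb4a 7.43 in WT 2 (6.27 to 6.36), Lyz2 11.49 in WT 3 (11.23 to 11.25), C4b 4.25 in WT 4 (5.04 to 5.15), Cox5b 9.19 in WT 1 (9.34 to 9.38), Hlf 6.43 in WT 1 (6.68 to 6.72) and Psmd3 8.33 in WT 2 (7.49 to 7.62). The mean of neuron markers was 5.35 in WT 2 (5.07 to 5.09).

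Among Trem2-/-5XFAD arrays, array 2 was lower for H2-Q4 at 6.16 (others 6.96 to 7.37), Fos at 10.63 (11.19 to 11.39) and Sall1 at 9.45 (10.02 to 10.13) and higher for Egln3 at 6.42 (4.24 to 4.87). Array 4 stood apart for Psmb8 at 8.60 (8.78 to 8.83) and Slc11a2 at 7.69 (7.02 to 7.22). Array 6 stood apart for Sc5d at 5.08 (6.12 to 6.57), Ddit3 at 8.95 (9.10 to 9.18), neuron markers at 5.36 (5.05 to 5.17) and erythroid markers at 4.80 (4.49 to 4.57).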

How the results depend on the processing

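Of 81 named called genes, 29 kept their direction and call under every alternative that gave a value, among them Apoc1, Cst7, Gpnmb, Apoe, Clec7a and Itgax. The counts of higher and lower genes, 408 and 256, became 184 and 67 with the sex signal as a covariate, 187 and 94 with neutrophil markers as a covariate, 167 and 127 with arrays of Y-linked signal only, and 263 and 116 without Trem2-/-5XFAD 1 and 6, an alternative added after seeing the data. Of the 664 genes called in the main fit, 215 kept direction and call with the sex covariate and 257 with the neutrophil covariate. Without Trem2-/-5XFAD 1 and 6 the number kept was 363. In the arrays with Y-linked signal 6 of the called genes turned sign. With the replicate number as a block the counts of higher and lower genes were 306 and 131. Leaving out 1 array gave 227 to 434 higher and 122 to 285 lower genes, with 227 and 122 without WT 3, and 170 lower without Trem2-/-5XFAD 4. Centring each array on its median gave 302 higher and 334 lower, which turns the split. Uncalled genes that changed sign were Ddit3 (-0.11, Y-linked signal only), Tyrobp (-0.02 without WT 1 and 2, -0.00 without WT 1, with -0.00 to 0.08 over the fits that left out 1 array) and B2m (0.01 with quantile normalization, 0.00 with the array of conflicting labels in WT, 0.01 with Y-linked signal only, 0.02 with the block, 0.03 without WT 3, 0.02 without Trem2-/-5XFAD 3 and 0.01 without Trem2-/-5XFAD 5, with -0.03 to 0.03 over the fits that left out 1 array). The cause was not tested. Genes near the 40th percentile have understated folds.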
